A study of Rattus norvegicus with 6 samples.

Results

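The interferon-stimulated effector genes encode the proteins that carry out an interferon response, here taken as 38 named genes without the IRF and STAT transcription factors. They were found by gene symbol in the count table of rat aortic vascular smooth muscle cells (RASMCs), primary cells grown from the aorta of male Sprague-Dawley rats. The table lists 22574 symbols and holds 37 of the 38 genes, Xaf1 being the one not listed under that symbol. RNA was measured in 6 libraries. In 3 of them, the CitH3+dsDNA group, cells were challenged with citrullinated histone H3 (0.03 μM) together with double-stranded DNA (300 ng/ml), which are components of extracellular traps, and in 3 they were controls given bovine serum albumin. The duration of the challenge in this experiment was not given in the sources used here. According to the study's reporting summary, in vitro replicates were wells plated with cells of the same rat, so p-values cover the spread between wells and library preparations and not between animals.

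Cells sense DNA in the cytosol through cGAS and STING, which act through the kinase TBK1 and the factor IRF3 to switch on type I interferon genes. Secreted interferon binds its receptor, the JAK kinases phosphorylate STAT factors, and these enter the nucleus with IRF9 and bind interferon-stimulated response elements in the promoters of the effector genes. The effectors then modify proteins with ISG15, bind or cut foreign RNA, block virus entry and exit, and load peptides onto MHC class I. In the vessel wall, smooth muscle cells can respond to interferon in this way, and the effector transcripts are commonly read as a signature of that response.

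After CitH3+dsDNA, 1 effector gene passed the test. Adar, the enzyme that converts adenosine to inosine in double-stranded RNA, rose 1.97-fold, while no other member was called in either direction. Of the 37 members listed, 31 had enough counts to be tested, and 1 of these 31, or 3.23%, had an adjusted p-value under 0.05, called here, in edgeR's quasi-likelihood test. Over all 12591 genes tested, 2.20% were called, 1.94% of all being called higher, so the share of members called lay close to the share of all genes. The median log2 fold change of the 31 members was 0.02 and that of all genes tested was -0.0013. In 18 members the fitted value was above 0 and in 13 below, and 23 had a size under 0.2.

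The intervals state how large a change the libraries leave room for. For 28 of the 31 members the 95% interval of the fold change ended below a 2-fold rise, and for 23 it ended below a 1.5-fold rise. In 19 members the whole interval lay within a 1.5-fold change up or down. The 3 members whose interval reached past a 2-fold rise were Adar, Ifit2 and Oas1b. For Ifit2, at 7 to 18 counts in a library, the interval ran from 0.674-fold to 2.35-fold, and for Oas1b, at 14 to 42 counts, from 0.755-fold to 2.20-fold. Larger rises than these bounds were therefore outside the interval of each gene taken alone, without adjustment for the number of genes.

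**Figure D1:**
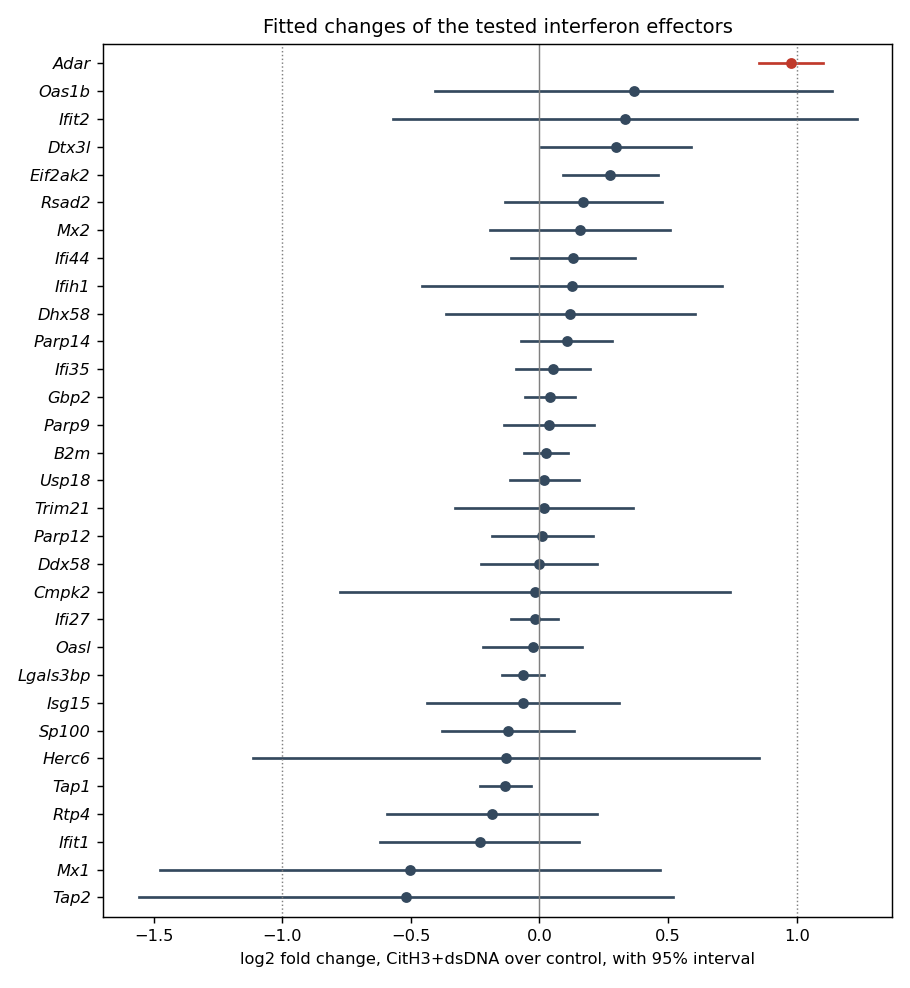
Log2 fold change of CitH3+dsDNA over control for the 31 tested effectors, with 95% intervals as lines and dotted lines at a 2-fold change. Adar, in red, is the one member called, and the other 30 values lie between -0.52 and 0.37.

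Library totals lay between 17573905 and 18742395 counts, and 3 counts correspond to between 0.162 and 0.170 CPM (counts scaled to a common library size, with TMM factors). These limits cover counting error only. The contractile smooth muscle markers were abundant and summed to 7675 to 8175 CPM after CitH3+dsDNA and to 10377 to 11165 CPM in controls. Acta2, Tagln, Cnn1 and Smtn were called lower among these 10 genes. The others were not called, with log2 fold changes from -0.06 (Tpm2) to 0.16 (Cald1). Cald1 was higher in each treated library than in any control. Lmod1 was lower in each treated library than in any control, with a log2 fold change of -0.06. Over 10 macrophage markers the summed level was 72.8 to 75.0 CPM against 73.5 to 76.6 CPM. Most of it was Cd14, at a mean of 52.1 against 52.3 CPM, and Csf1r, at 18.1 against 19.7 CPM. Cd68 stood at 0.874 against 0.762 CPM, and Ptprc, Itgam, Cd163 and Mrc1 had no more than 1 count in any library. Aif1, too low to be tested, had 8, 9 and 9 against 2, 2 and 3 counts, and its groups did not overlap. Lyz2 stood at 0.411 against 0.731 CPM and Adgre1 at 1.59 against 1.36 CPM, and both overlapped between the groups. Of the 5 macrophage markers tested, none was called. Endothelial markers summed to 10.6 to 10.9 CPM against 12.2 to 12.3 CPM, fibroblast markers to 2.37 to 3.97 against 2.53 to 4.59 CPM, and lymphocyte markers to 0.454 to 0.881 against 0.539 to 0.784 CPM, with Cd3d, Ms4a1 and Cd8a at 0 in all libraries. Of the 5 endothelial markers tested, none was called and the groups overlapped in each, with log2 fold changes from -0.22 to -0.09. The part that the lower contractile and endothelial sums have in the values below was not tested. In such bulk samples, fewer cells of a type and less RNA per cell cannot be told apart.

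Across the members the libraries differed little. The median member lay 0.03, -0.03 and 0.03 from the control mean on the log2 scale in CitH3+dsDNA replicates 1, 2 and 3, and 0.01, -0.06 and 0.09 from it in control replicates 1, 2 and 3. The widest gap between libraries was thus between 2 controls. Control replicate 3 held the highest value of 8 members and control replicate 2 the lowest value of 12, and CitH3+dsDNA replicate 3 held the highest value of 10.

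**Figure D2:**
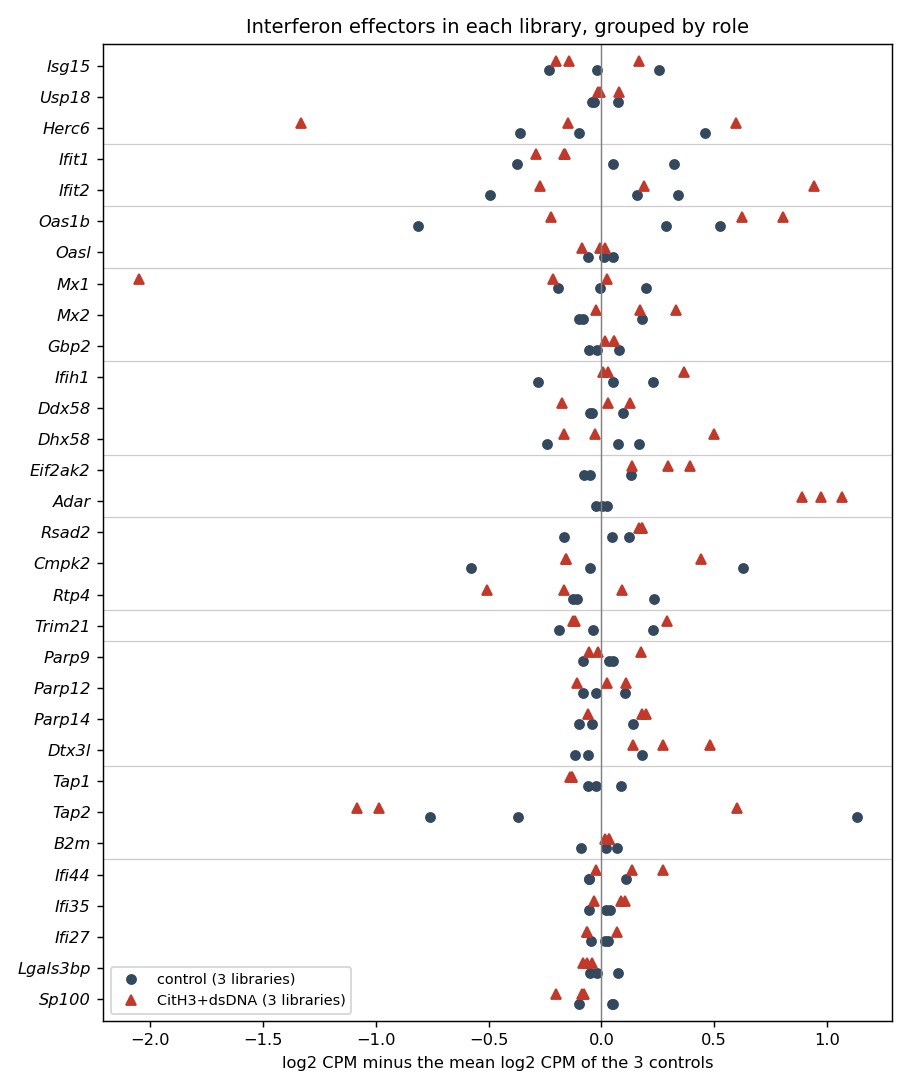
Each row is a tested effector and each point a library, as log2 CPM minus the mean log2 CPM of the 3 controls (circles, controls; triangles, CitH3+dsDNA). Triangles and circles overlap in all rows but Adar, Eif2ak2, Rsad2 and Tap1, and the 3 Adar triangles stand near 1, apart from the 3 circles near 0.

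Promoters were searched for the core of the interferon-stimulated response element, written GAAANNGAA on one strand and TTCNNTTTC on the other. RefSeq promoters of the GRCr8 assembly, 250 bases before to 50 after the start site, had an entry for 28 of the 38 members. The core was present in 21 of these 28, or 75.0%, and in 10.3% of the 27457 genes with a promoter. A second motif, the gamma-activated site TTCNNNGAA, which reads the same on both strands, was present in 4 of the 28 (14.3%) and in 9.39% of all genes. Both motifs can overlap, and a match of letters is not a measured binding site. The promoters of Herc6, Oasl, Mx1, Trim25, Parp9, Ifi35 and Sp100 held no response element core. Isg15, Usp18, Ifit1, Ifit2, Oas2, Mx2, Ddx58, Dhx58, Adar and Rtp4 had no entry under those symbols.

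The windows below, 5′ to 3′ on the gene's own strand, are shown because they belong to tested members of different roles whose levels are described next, with 1 core in capitals and the strand of the gene after the position. Where a promoter held several cores, 2 in Oas1b, Trim21 and Ifi44 and 3 in Socs1, the window shows the one nearest the start site. In Oas1b, Trim21 and Socs1 an overlapping core in the window is left in lower case. The last 2 belong to Irf7 and Socs1, which are no effectors but regulators of the pathway that rose. Among the other pathway genes called below, Ifng, Jak2, Irf9, Irf3, Tbk1, Aim2 and Socs3 had no core in their promoters. The first of 2 entries of Shisa5 had none either, and Mb21d1 and Tmem173 had no entry. Over all pathway genes outside the members, 31 of the 89 with a promoter (34.8%) held the core.
Eif2ak2, GRCr8 chr6:21941123-21941161, plus: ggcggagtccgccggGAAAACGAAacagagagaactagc
Dtx3l, GRCr8 chr11:78320220-78320258, plus: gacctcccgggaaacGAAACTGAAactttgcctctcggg
Trim21, GRCr8 chr1:166399360-166399398, minus: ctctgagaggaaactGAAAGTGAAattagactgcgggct
Ifih1, GRCr8 chr3:67684004-67684042, minus: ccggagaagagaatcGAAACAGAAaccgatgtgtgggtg
Oas1b, GRCr8 chr12:41395882-41395920, minus: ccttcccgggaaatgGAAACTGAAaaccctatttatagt
Gbp2, GRCr8 chr2:234005682-234005720, plus: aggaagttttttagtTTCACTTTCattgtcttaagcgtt
Rsad2, GRCr8 chr6:48788243-48788281, minus: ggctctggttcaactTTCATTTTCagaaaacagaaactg
Ifi44, GRCr8 chr2:243303842-243303880, minus: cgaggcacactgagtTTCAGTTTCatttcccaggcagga
Tap1, GRCr8 chr20:4668640-4668678, minus: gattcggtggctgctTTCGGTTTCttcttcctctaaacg
B2m, GRCr8 chr3:129549165-129549203, plus: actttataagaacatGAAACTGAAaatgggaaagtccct
Irf7, GRCr8 chr1:205800068-205800106, minus: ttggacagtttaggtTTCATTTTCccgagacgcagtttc
Socs1, GRCr8 chr10:5389458-5389496, plus: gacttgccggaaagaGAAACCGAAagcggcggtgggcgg
The centre of the core lay 12 bases before the annotated start in Eif2ak2, 26 in Gbp2, 55 in Ifih1, 116 in Tap1 and 146 in B2m, and 14 bases after it in Dtx3l.

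The double-stranded RNA-binding enzymes held the one called member. Adar had 1156, 994 and 1087 counts after CitH3+dsDNA and 544, 556 and 575 in controls. All 3 treated libraries lay above all 3 controls. In CPM, Adar stood at 60.0 ± 3.68 (SD, n = 3) against 30.5 ± 0.509 (SD, n = 3). The log2 fold change was 0.98, with a standard error (SE) of 0.06 (edgeR adjusted p = 1.17e-07). The interval of the fold change ran from 1.81 to 2.15. Leaving out each library in turn kept the log2 fold change between 0.93 and 1.02. ADAR1 is made from a constitutive and a longer, interferon-inducible transcript, and counts per gene do not separate them. No other gene of the GRCr8 annotation overlaps Adar. Of the 37 members with an entry there, 8 do overlap another gene, among them Eif2ak2, Oasl, Rtp4 and Parp12.

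Eif2ak2 encodes PKR, a kinase that stops translation when it binds double-stranded RNA. Its counts were 371, 403 and 443 after CitH3+dsDNA and 315, 333 and 378 in controls. CitH3+dsDNA replicate 1 lay below control replicate 3 in counts and just above it in CPM, so that the groups did not overlap after scaling, at 22.6 ± 1.99 against 18.7 ± 1.49 (SD, n = 3 each). The log2 fold change was 0.27 (SE 0.09) and was not called (edgeR adjusted p = 0.149, 0.0714 to 0.403 over the alternatives). Of the members not called, Eif2ak2 had the smallest adjusted p.

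**Figure D3:**
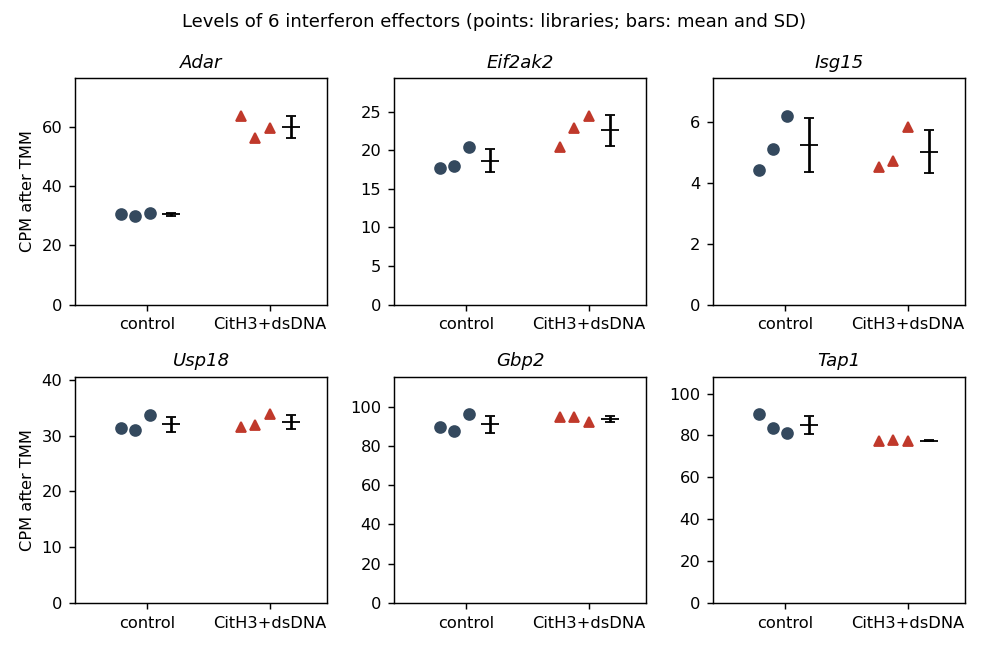
CPM after TMM of 6 effectors, with a point for each library and the mean and SD of the 3 libraries beside them; each vertical axis starts at 0. Adar is near 30 CPM in controls and near 60 CPM after CitH3+dsDNA, and Isg15, Usp18 and Gbp2 overlap between the groups.

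Among the RIG-I-like receptors, which detect viral RNA in the cytosol, no member was called. Ddx58, the gene of RIG-I, was counted 217, 171 and 203 times after CitH3+dsDNA and 190, 196 and 217 times in controls, with a log2 fold change of 0.00 (SE 0.10, edgeR adjusted p = 0.998). Its level was 11.0 ± 1.15 against 11.0 ± 0.629 CPM (SD, n = 3 each), and the fold change had an interval of 0.854 to 1.17. Ifih1, the gene of MDA5, had 29, 22 and 23 against 23, 19 and 27 counts, and Dhx58, the gene of the regulator LGP2, had 52, 46 and 75 against 55, 46 and 61. Both overlapped between the groups, with log2 fold changes of 0.13 and 0.12.

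ISG15 is a ubiquitin-like protein that is joined to other proteins, and USP18 removes it and also restrains the interferon receptor. Isg15 had counts of 82, 83 and 106 after CitH3+dsDNA and of 79, 95 and 115 in controls. The highest and the lowest of the 6 counts were both controls. Its level was 5.02 ± 0.712 CPM against 5.25 ± 0.892 CPM (SD, n = 3 each), a log2 fold change of -0.06 (SE 0.17, edgeR adjusted p = 0.909), with an interval of 0.739-fold to 1.24-fold. Usp18 had 574, 562 and 614 against 559, 577 and 625 counts, and the groups overlapped at 32.5 ± 1.19 against 32.0 ± 1.43 CPM (SD, n = 3 each). Its log2 fold change was 0.02 (SE 0.06, edgeR adjusted p = 0.930), and its interval of 0.923-fold to 1.11-fold lay wholly within a 1.5-fold change. Herc6, a ligase of the same conjugation pathway in rodents, had 19, 11 and 5 against 17, 10 and 12 counts.

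The IFIT proteins bind foreign RNA ends and block their translation. Ifit1 had 85, 90 and 93 counts after CitH3+dsDNA and 106, 82 and 133 in controls, so that the treated libraries lay inside the range of the controls. At 4.97 ± 0.247 against 5.84 ± 1.38 CPM (SD, n = 3 each), its log2 fold change was -0.23 (SE 0.18, edgeR adjusted p = 0.604). Reads of Ifit1 can be shared with its near copy Ifit1bl, which overlaps it in the GRCr8 annotation. Ifit2 had 11, 18 and 8 against 12, 11 and 7 counts, and Ifit3, which was not tested, had 4, 6 and 1 against 6, 7 and 5. At these counts the interval of Ifit2 was wide, as given above, and none was computed for Ifit3.

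The OAS enzymes make short oligoadenylates that activate the ribonuclease RNase L. Oasl, a family member, had counts of 196, 201 and 210 against 206, 204 and 220, a log2 fold change of -0.03 (SE 0.09, edgeR adjusted p = 0.933). The groups overlapped at 11.3 ± 0.400 against 11.5 ± 0.435 CPM (SD, n = 3 each), with the highest count in a control. Oas1b had 37, 20 and 42 against 34, 14 and 30, and its log2 fold change of 0.37 (SE 0.35) was not called. The other family members were too low to test: Oas1a had 8, 3 and 5 against 2, 6 and 11 counts, Oas2 had 1, 3 and 1 in both groups, and Oas3 had at most 2. Oas1a and Oas1b are close copies, and reads may be shared between them.

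The interferon-induced GTPases MX1 and MX2 and the guanylate-binding proteins restrict viruses and bacteria inside cells. Gbp2 had 1715, 1670 and 1672 counts after CitH3+dsDNA and 1602, 1625 and 1784 in controls, where 1 control exceeded all treated libraries. At 93.8 ± 1.49 against 91.1 ± 4.44 CPM (SD, n = 3 each), the log2 fold change was 0.04 (SE 0.04, edgeR adjusted p = 0.734), and the interval ran from 0.962-fold to 1.10-fold. Mx2 had 93, 79 and 104 against 76, 80 and 96 counts, with a log2 fold change of 0.16. Mx1 was near the lower limit at 11, 3 and 13 against 11, 13 and 15 counts, or 0.498 ± 0.289 against 0.708 ± 0.0962 CPM (SD, n = 3 each). The value of Mx1, -0.50 on the log2 scale (SE 0.45, edgeR adjusted p = 0.665), rested on CitH3+dsDNA replicate 2 and ranged from -0.86 to -0.10 with each library left out.

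Viperin, encoded by Rsad2, makes an antiviral nucleotide with its neighbour CMPK2, tetherin (BST2) holds virus particles at the membrane, and RTP4 is a further inhibitor of virus replication. Rsad2 had counts of 107, 103 and 107 after CitH3+dsDNA and of 96, 86 and 105 in controls. In CPM the treated libraries lay above the controls, at 5.88 ± 0.0307 against 5.22 ± 0.529 (SD, n = 3 each), and the log2 fold change was 0.17 (SE 0.14, edgeR adjusted p = 0.633). Cmpk2 had 17, 25 and 17 against 18, 13 and 30 counts, and Rtp4 had 92, 59 and 77 against 78, 82 and 104. Neither pair of groups separated. Bst2 was close to absent in these libraries, with 0, 3 and 3 against 0, 0 and 1 counts, and was not tested.

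The TRIM ligases TRIM21, an intracellular antibody receptor, and TRIM25, which activates RIG-I, differed in how much could be said of them. Trim21 had 107, 139 and 108 against 112, 105 and 140 counts, a log2 fold change of 0.02 (SE 0.16, edgeR adjusted p = 0.977). The levels were 6.58 ± 1.13 against 6.49 ± 0.961 CPM (SD, n = 3 each). In each group 1 library stood above the rest, replicate 2 after CitH3+dsDNA and replicate 3 in controls. Trim25 had 3, 13 and 7 against 5, 14 and 7 counts and was not tested.

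PARP9 and its partner DTX3L form an ADP-ribosylating and ubiquitin ligase complex, and PARP12 and PARP14 are further ADP-ribosyltransferases. Parp14 had counts of 707, 583 and 718 against 574, 622 and 705, and Parp9 had 325, 325 and 382 against 340, 327 and 358. Parp12 had 246, 218 and 261 against 256, 243 and 234, and in all of these the groups overlapped. Parp14, the most abundant of the 4, stood at 37.2 ± 3.58 against 34.6 ± 3.05 CPM (SD, n = 3 each). The log2 fold changes were 0.11 (SE 0.08, edgeR adjusted p = 0.601) for Parp14, 0.04 for Parp9 and 0.01 for Parp12. Dtx3l, with 133, 142 and 169 against 114, 114 and 140 counts, was higher in 2 of 3 treated libraries than in any control, at 8.23 ± 0.999 against 6.69 ± 0.748 CPM (SD, n = 3 each). Its log2 fold change of 0.30 (SE 0.13) was not called (edgeR adjusted p = 0.342, 0.206 to 0.666 over the alternatives). Dtx3l and Parp9 overlap each other in the GRCr8 annotation, and the strand setting of the counting was not stated.

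TAP1 and TAP2 carry peptides into the endoplasmic reticulum, where they bind MHC class I and its light chain, β2-microglobulin (B2m). Tap1 had counts of 1407, 1369 and 1401 after CitH3+dsDNA and of 1607, 1550 and 1511 in controls, each treated library below each control. At 77.5 ± 0.272 against 85.0 ± 4.50 CPM (SD, n = 3 each), its log2 fold change was -0.13 (SE 0.05) and was not called (edgeR adjusted p = 0.205, 0.101 to 0.504 over the alternatives). Tap2 varied widely between replicates, with 69, 216 and 74 against 85, 116 and 328 counts, or 6.71 ± 4.80 against 9.56 ± 7.06 CPM (SD, n = 3 each). Its log2 fold change of -0.52 (SE 0.48, edgeR adjusted p = 0.682) became 0.28 without control replicate 3 and -1.28 without CitH3+dsDNA replicate 2. B2m had 15227, 14956 and 15446 against 15541, 15620 and 14485 counts, which is 846 ± 5.88 against 831 ± 46.1 CPM (SD, n = 3 each), and its log2 fold change was 0.03 (SE 0.04, edgeR adjusted p = 0.818). The interval ran from 0.960-fold to 1.08-fold.

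Of the remaining induced proteins, Lgals3bp, a secreted glycoprotein that binds galectins, had counts of 7686, 7381 and 7802 against 8310, 7926 and 8101. The groups overlapped at 424 ± 5.48 against 443 ± 20.1 CPM (SD, n = 3 each), and the log2 fold change was -0.06 (SE 0.04, edgeR adjusted p = 0.495). Ifi27, a small hydrophobic protein of the mitochondrion, had 6342, 6155 and 6970 against 6666, 6559 and 6867 counts, and a log2 fold change of -0.02 with an interval of 0.927-fold to 1.05-fold. Ifi35 had 507, 498 and 467 against 452, 495 and 501 counts, and Ifi44 had 201, 159 and 183 against 177, 164 and 164. Sp100, a component of nuclear bodies, had 127, 123 and 117 against 137, 142 and 128, which in CPM still overlapped. Their log2 fold changes were 0.05, 0.13 and -0.12.

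In 4 of the 31 members (12.9%) the CPM of the groups did not overlap, 3 higher (Adar, Eif2ak2 and Rsad2) and 1 lower (Tap1), against 19.1% of all genes tested. An unadjusted p-value under 0.05 was reached by 4 members as well (12.9%), namely Adar, Eif2ak2, Dtx3l and Tap1, against 13.9% of all genes tested. The share by unadjusted p-value was close to that of all genes, and neither share exceeded it. Whether either differed from that of all genes was not tested. With 3 libraries against 3, an exact two-sided permutation test of one gene cannot give a p-value under 0.1.

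**Figure D4:**
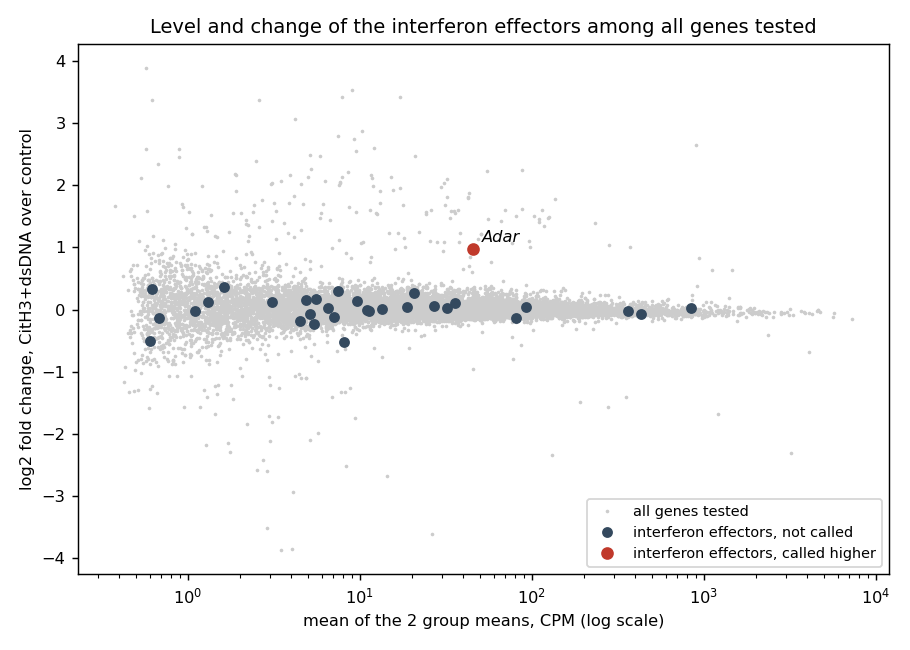
Mean CPM of both groups on a log scale against the log2 fold change, with all 12591 genes tested in grey and the 31 effectors as large points. The effectors span levels from Mx1, near the low end, to B2m at 846 CPM after CitH3+dsDNA, and Adar at 0.98 stands apart from the other 30.

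The other genes of the pathway were taken from lists of 107 genes, of which 87 were tested and 12 were called, all of them higher after CitH3+dsDNA (13.8%, against 2.20% of all genes). These lists were drawn up with earlier results of these libraries known, and Tmem173, Tbk1 and Socs1 are genes that the study itself discusses, so their count is not independent evidence. By list, the calls lay mainly among sensing, signalling and feedback genes. Of 12 signalling and transcription factor genes 4 were called, of 8 tested nucleic acid sensing genes 4, of 9 feedback inhibitors 2 and of 7 tested interferon and receptor genes 1. Among 39 tested further interferon-induced genes only Shisa5 was called, and among 12 tested antigen processing partners none by edgeR, DESeq2 or limma-voom, with 1 at an unadjusted p under 0.05 in edgeR.

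Irf7, the amplifier of type I interferon transcription and itself a classical interferon-induced gene, had counts of 159, 166 and 145 after CitH3+dsDNA and of 21, 38 and 27 in controls. It rose 5.58-fold, a log2 fold change of 2.48 (SE 0.20, edgeR adjusted p = 2.87e-06). Irf9, a DNA-binding partner of STAT factors, had 430, 334 and 355 against 165, 146 and 176 counts and rose 2.34-fold (edgeR adjusted p = 9.06e-06). Irf3, activated by TBK1, had 985, 996 and 898 against 453, 343 and 446 counts and rose 2.36-fold (edgeR adjusted p = 2.58e-06). In each of these 3 genes the groups lay far apart. Stat2, which binds DNA together with IRF9, had 1956, 1864 and 1941 against 2032, 1982 and 2199 counts and was not called (log2 fold change -0.08, edgeR adjusted p = 0.459). Its groups overlapped. Jak2 rose 3.20-fold, Mb21d1 (cGAS) 2.79-fold, Tmem173 (STING) 1.87-fold, Tbk1 1.58-fold, and the feedback inhibitors Socs1 and Socs3 10.7-fold and 1.62-fold. Shisa5, a pro-apoptotic membrane protein, had 2380, 2330 and 2377 against 1010, 1123 and 1212 counts and rose 2.16-fold (edgeR adjusted p = 8.12e-09).

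Transcripts of type I interferons were at the counting limit. Ifnb1 had 1 count in CitH3+dsDNA replicate 3 and 0 in the 5 other libraries, and Ifna1, Ifna4 and Ifna5 had 0 in all 6, which allows up to 3 counts or 0.170 CPM in a library. Ifng, the interferon made mainly by T and NK cells, had 67, 66 and 68 against 32, 23 and 26 counts and rose 2.53-fold (edgeR adjusted p = 0.00327). Of the 7 lymphocyte markers, the T cell genes Cd3d and Cd8a and the B cell gene Ms4a1 were at 0 in all libraries. Cd3e had 2, 2 and 4 against 1, 0 and 3 counts, Cd4 had 2, 4 and 4 against 3, 3 and 4, and Nkg7, a gene of NK and cytotoxic T cells, had 10, 0 and 8 against 10, 7 and 5. None of the 7 reached the level needed for the test, and their part in the Ifng result was not tested. Aim2, a DNA sensor of the inflammasome, had 23, 22 and 21 against 6, 7 and 4 counts and rose 3.96-fold (edgeR adjusted p = 0.00735). The 3 treated counts of both genes are consecutive whole numbers, as they are in 60 of the 12591 genes tested and in none of the effectors. The interferon receptor genes Ifnar1, Ifnar2, Ifngr1 and Ifngr2 were well counted and not called, with log2 fold changes from -0.03 to 0.10.

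**Figure D5:**
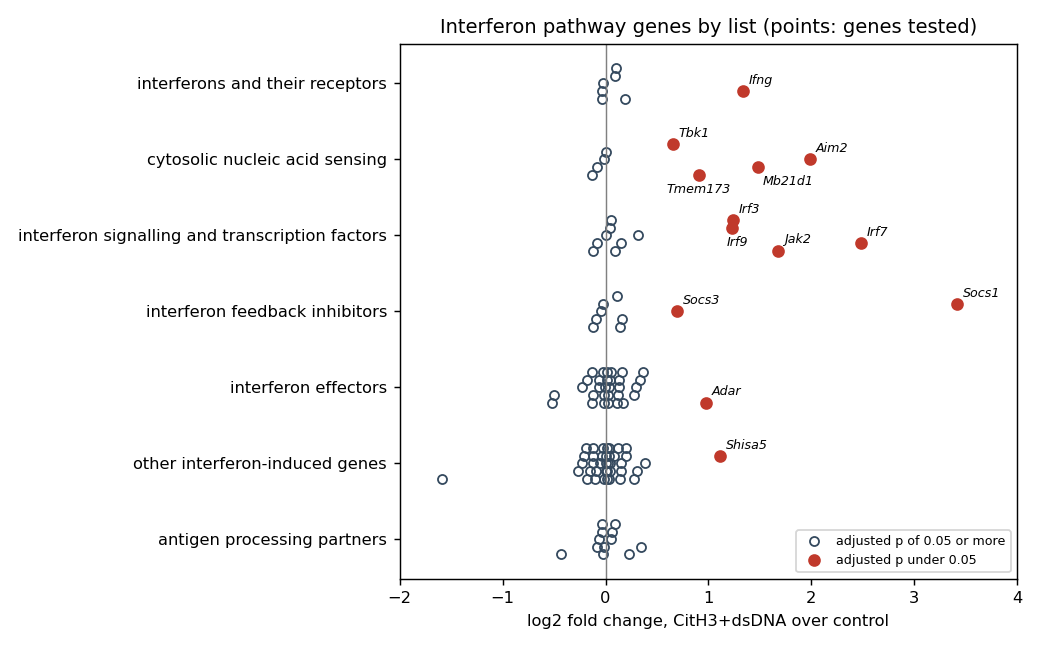
Log2 fold change of CitH3+dsDNA over control for the tested genes of each interferon pathway list, filled red where the adjusted p is under 0.05 and open where it is not. Red points lie to the right in the sensing, signalling and feedback lists, up to 3.42 for Socs1, and the effector row holds 1 of 31.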

How the data were processed

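RNA-seq of 3 CitH3+dsDNA and 3 control RASMC libraries was used, grouped by their labels. The authors made stranded mRNA libraries, used TopHat2 2.1.1 to align reads on Rnor6.0 and HTSeq to count reads for each gene symbol. The deposited values are these raw counts. The submitters' processing notes also name Cufflinks 2.2.1 and Cuffdiff. The strand setting of the counting is not given in the sources used here. Doses come from the study's methods. All 6 columns were used.

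In R 4.3.3, edgeR 4.0.16 was used to filter genes (filterByExpr), to scale libraries (TMM) and for a two-sided quasi-likelihood test per gene. P-values of 12591 genes were adjusted by Benjamini-Hochberg, and a gene was called under 0.05. The study itself used DESeq2, which is an alternative here. Log2 fold changes are unshrunken coefficients, the standard error is the coefficient's size divided by the square root of F, and 95% intervals use the t distribution of the fit. The fits were tested on simulated data. The smallest chi-square per gene between replicate libraries was 3.27, so none were duplicates. Alternatives were scaling by library size only, by upper quartile or by size factors of DESeq2, the tools DESeq2 1.42.0 and limma-voom (limma 3.58.1), dropping the filter or asking for a mean of 10 counts, robust dispersions, blocking on the replicate number, and leaving out single libraries.

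The members and lists were chosen with earlier results of these data known. Values per library were set for members called, not overlapping, with a log2 fold change size over 0.5, or highest in their role; those of other members were added after the values were seen. Promoters were matched by symbol to RefSeq entries.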

Additional observations from a re-analysis of the deposited data

How the results depend on the processing

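Adar was called higher, and no other effector was called, in all 9 alternatives with 6 libraries and in all 6 with one library left out. Its log2 fold change ranged from 0.93 to 1.02 and its adjusted p-value from 4.97e-36 (DESeq2) to 5.69e-06. Of 465 values of single effectors under the alternatives, all kept their side of the threshold, and 33, none of them called, changed sign. The 12 calls among the other pathway genes numbered 12 throughout. The number of genes called over the whole table, 277, was 212 (replicate block) to 376 (robust dispersions) in the alternatives with 6 libraries. With one library left out it ran from 164, without CitH3+dsDNA replicate 1, to 357, without control replicate 3, and was 184 without control replicate 1. The median log2 fold change of the effectors, 0.02, ran from -0.0024 without control replicate 2 to 0.072 without control replicate 3, which held the highest value of 8 effectors. With a replicate block 212 genes and 1 effector, Adar, were called, and the effectors' median was 0.0193. Deviations of same-numbered libraries from their group means had correlations of -0.0458, 0.00452 and 0.0355 across genes. All tested genes counted alike in these, those with few counts included, so they cannot exclude a pairing by number. No call of an effector changed under the block. Depth limits the 6 effectors with at most 14 counts in any library. It also limits tested ones with few counts, such as Mx1 (SE 0.45), Herc6 (SE 0.45) and Ifit2 (SE 0.41). Of all calls 88.1% were higher, and 83.6% to 91.8% were under other scalings.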
